A study of Mus musculus with 7 samples.

Results

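Collagens, laminins and integrins are the fibres, the sheet-forming glycoproteins and the receptors through which cells build and hold on to the extracellular matrix. The 3 families were taken from the table of reads counted per gene as every symbol built like a collagen chain, a laminin chain or an integrin subunit. This gave 58 of 14819 rows of the table: 23 collagens, 9 laminins and 26 integrin-like symbols, of which 23 are integrin subunits. The other 3 integrin-like symbols are *Itgb1bp1* and *Itgb3bp*, whose products bind integrin tails, and *Itgb2l*, a gene named for its likeness to *Itgb2*. They were counted apart. The mouse annotation (GENCODE, GRCm38) lists 44 protein-coding collagens, 11 laminins and 26 integrin subunits by the same patterns, and those without a row in the table, such as *Col2a1*, *Col4a3*, *Lama2* and *Itga11*, were not analysed here.

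The study asked how loss of WDR6, a WD-repeat protein, changes gene expression in hepatocytes. The livers of male mice were perfused with collagenase, and the hepatocytes were grown without treatment in William's E medium with serum, and kept overnight before RNA was taken. WT hepatocytes gave 4 libraries and hepatocytes of WDR6-WKO mice, in which an exon of *Wdr6* was deleted in the whole body with CRISPR–Cas9, gave 3. The deletion is present in every cell type of the knockout mice and throughout life, and the methods name no age or diet for these donor mice in particular, beyond a general age and food ad libitum for mice not otherwise specified. The libraries held between 17816913 and 23668940 counted reads. *Wdr6* itself had 972, 776, 769 and 909 reads in WT and 62, 49 and 40 in WDR6-WKO libraries, a log2 fold change of -4.20 (SE 0.11, adjusted p = 3.44e-12 in edgeR's quasi-likelihood test). Among the WDR6-WKO libraries, replicate 3 stood apart from the other two: its counts differed from theirs with a chi-square of 14.3 and 16.0 per gene, against 5.13 between replicates 1 and 2 and 3.80 to 8.24 between WT libraries. Where a gene named below gained or lost its call without it, both values are given.

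Collagen chains wind into triple helices of 3 chains. Fibrillar collagens pack into fibres, type IV collagen forms the net of basement membranes together with laminin trimers of an alpha, a beta and a gamma chain, and type VI collagen makes beaded filaments around cells. Integrins are pairs of an alpha and a beta chain in the plasma membrane: those with the beta chain *Itgb1* or with the alpha chain *Itgav* hold cells to collagen, laminin, fibronectin and vitronectin, and those with *Itgb2* are made by leukocytes. In the liver, stellate cells and fibroblasts are known as the main makers of fibrillar collagen, and hepatocytes sit next to sinusoids that lack a continuous basement membrane.

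Levels were expressed as CPM, library-scaled counts (edgeR's TMM factors) on the usual CPM scale, and a gene was called when its adjusted p over all 14779 genes tested was below 0.05. By that rule 1897 genes, 12.8% of those tested, were called, 983 with more (6.65%) and 914 with less (6.18%) RNA in the knockout, and the median log2 fold change of all genes was 0.01. All 58 members passed the filter on expression. In these cells 11 of the 55 collagen, laminin and integrin genes were called, 10 higher and 1 lower. They were 5 of 23 collagens, 0 of 9 laminins and 6 of 23 integrin subunits, and none of the 3 other integrin-like symbols was called. A rule on size, an absolute log2 fold change from 0.35 upward with an unadjusted P below 0.05, took 10.4% of all genes and 4 collagens, 0 laminins and 6 integrins. Among collagens *Col16a1* entered, and *Col4a1* and *Col4a2*, with smaller fold changes, did not. The 6 integrins were 5 higher and 1 lower: *Itgb7* and *Itgb8* entered, and *Itgb2* and *Itga5*, with smaller fold changes, did not. Values after ± are s.d. over 4 WT or 3 WDR6-WKO libraries. The higher genes were the collagens *Col4a1*, *Col4a2*, *Col4a5* and *Col5a2* and the integrins *Itga4*, *Itga5*, *Itgam*, *Itgax*, *Itgb2* and *Itgb6*, and the lower gene was *Col6a3*.

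**Figure D1:**
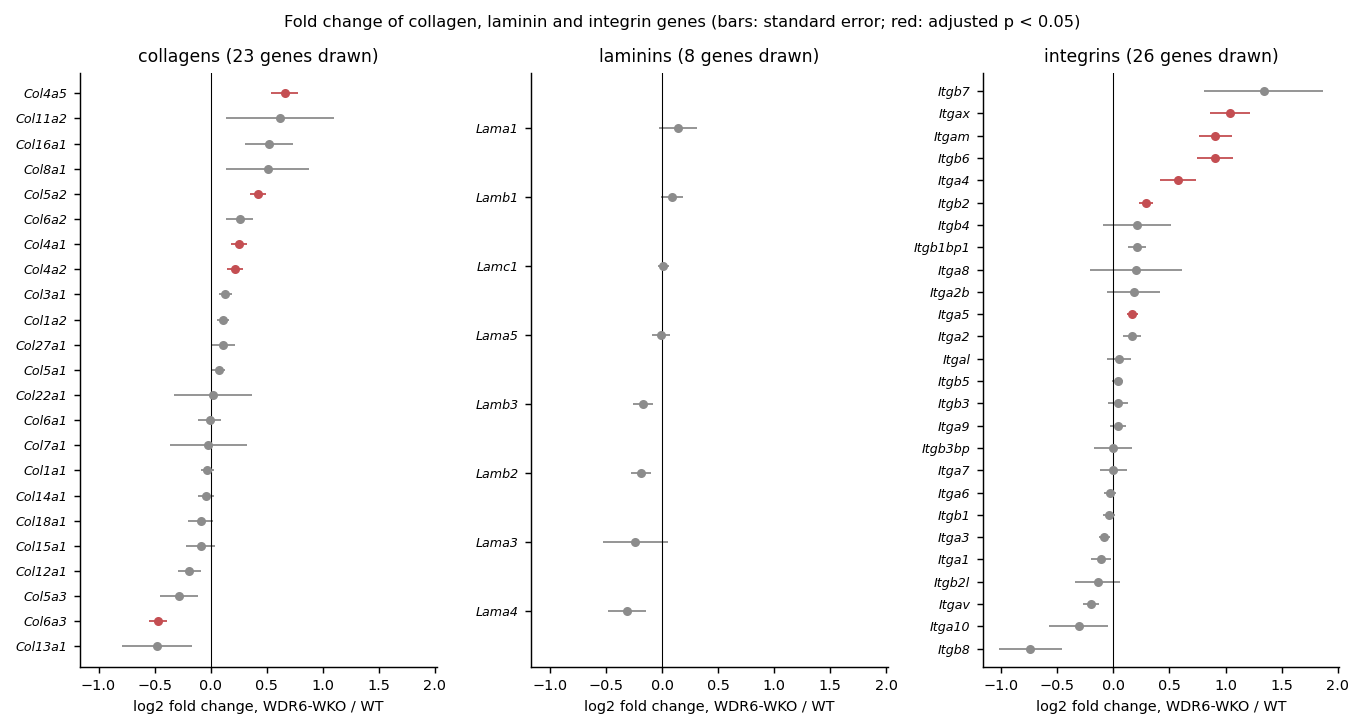
Log2 fold change (WDR6-WKO over WT, x axis) of the 23 collagens, 8 of the 9 laminins and the 26 integrin-like symbols, with bars for 1 standard error and red for genes with an adjusted p below 0.05. The called integrins all lie to the right of 0, the collagens lie on both sides with *Col6a3* as the only red point on the left, and no laminin is red.

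Before the changes, the levels show what these cultures expressed. CPM was divided by the length of each gene's principal transcript so that genes could be set side by side, and the following levels are means of the 7 libraries in CPM per kb. The collagens with the highest levels were the basement membrane chain *Col4a1* with 57.6, the fibrillar chain *Col3a1* with 40.6 and *Col4a2*, the partner of *Col4a1*, with 33.0. *Col1a1* and *Col1a2*, the chains of type I collagen, followed with 25.4 and 19.7. At the other end were *Col8a1*, *Col7a1*, *Col11a2* and *Col22a1*, none with more than 0.152, so the range within the family was large.

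One laminin gene stood above the others. *Lamc1*, the gamma chain shared by most laminins, had a level of 27.3 CPM per kb, and *Lamb3*, a beta chain of epithelia, had 7.71. The alpha chain *Lama3* was the lowest laminin with 0.106. The alpha chain with the highest level was *Lama5* with 2.96. Among integrins, the common beta chain *Itgb1* reached 349 CPM per kb, the laminin-binding alpha chain *Itga3* reached 127, and *Itgav*, an alpha chain of vitronectin and TGF-β-activating integrins, reached 96.1. The leukocyte alpha chains *Itgam* and *Itgax* lay far lower, *Itgax* at 0.755, and their beta chain *Itgb2* was at 14.6.

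**Figure D2:**
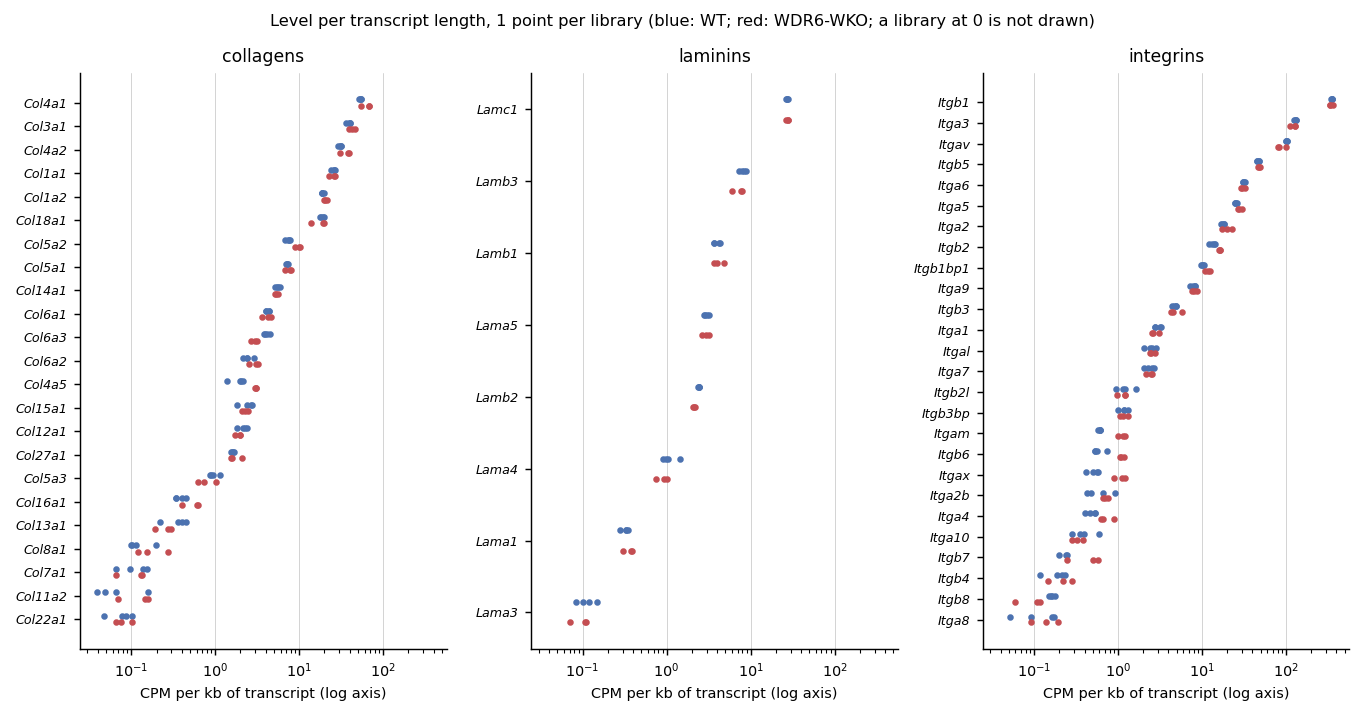
Level of the collagens, 8 of the 9 laminins and the integrin-like symbols in CPM per kb of its principal transcript (log axis), with a point for each WT library in blue and for each WDR6-WKO library in red. *Col4a1* leads the collagens with a mean of 57.6, *Lamc1* the laminins with 27.3 and *Itgb1* the integrins with 349, and most genes show blue and red points over the same range.

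Type IV collagen was the collagen group with the most calls. Of the 6 basement membrane and network collagens in the table, 3 were called higher, beside 12.8% of all genes called and 6.65% called higher. The median log2 fold change over the 6 was 0.23. The WT and WDR6-WKO libraries did not overlap for 1 of the 6, beside 23.5% of all genes. The calls of *Col4a1* and *Col4a2* depended on single libraries, as given below, so the ranking of this group depends on them too. *Col4a5*, an X-linked chain of type IV collagen, was counted at 13.1, 9.11, 14.1 and 13.4 CPM in WT replicates 1 to 4 and at 19.7, 20.1 and 19.2 CPM in WDR6-WKO replicates 1 to 3. Every WDR6-WKO library lay above every WT library, and WT replicate 2 was the lowest. The mean rose from 12.4 ± 2.26 to 19.7 ± 0.460 CPM, a log2 fold change of 0.66 (SE 0.12, edgeR adjusted p = 0.00176).

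*Col4a1* and *Col4a2*, which form the most widespread type IV trimer, changed less and less evenly. *Col4a1* stood at 359.9, 339, 359 and 355 CPM in WT and at 452, 447 and 358 CPM in WDR6-WKO libraries. *Col4a2* stood at 204, 189.5, 197 and 205 CPM in WT and at 251, 243 and 200.2 CPM in WDR6-WKO libraries. WDR6-WKO replicates 1 and 2 lay above all WT libraries for both genes, and replicate 3 lay within the WT range for both. The log2 fold changes were 0.25 (SE 0.07, edgeR adjusted p = 0.0292) for *Col4a1* and 0.22 (SE 0.07, edgeR adjusted p = 0.0445) for *Col4a2*. Without WDR6-WKO replicate 3 they were 0.34 and 0.31, with adjusted p of 4.3e-08 and 1.19e-06 in the same edgeR test. Both calls were lost when any other library was left out, WT or WDR6-WKO, with adjusted p from 0.0570 to 0.152 for *Col4a1* and from 0.0722 to 0.222 for *Col4a2*, and an exact two-sided permutation test of either gene gave p = 0.0857.

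The genes *Col4a1* and *Col4a2* lie head to head on chromosome 8 of GRCm38, *Col4a1* from 11198423 to 11312826 on the minus strand and *Col4a2* from 11312805 to 11449287 on the plus strand. Their first exons share 22 bases. The start regions are shown because the 2 genes, whose levels moved together from library to library, start from the same stretch of DNA. Each is given along its own strand from 250 bases before to 50 bases after the start in RefSeq (GRCm38.p6), and capitals mark the 78 bases, chr8:11312777-11312854, that both regions contain, read on opposite strands.
Col4a1 (chr8:11312777-11313076, minus strand): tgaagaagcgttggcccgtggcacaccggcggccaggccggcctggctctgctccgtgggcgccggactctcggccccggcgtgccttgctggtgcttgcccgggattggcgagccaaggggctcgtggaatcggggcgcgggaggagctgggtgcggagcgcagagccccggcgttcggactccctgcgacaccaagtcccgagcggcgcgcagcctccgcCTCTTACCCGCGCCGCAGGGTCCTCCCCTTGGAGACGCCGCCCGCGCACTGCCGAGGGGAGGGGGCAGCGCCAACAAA
Col4a2 (chr8:11312555-11312854, plus strand): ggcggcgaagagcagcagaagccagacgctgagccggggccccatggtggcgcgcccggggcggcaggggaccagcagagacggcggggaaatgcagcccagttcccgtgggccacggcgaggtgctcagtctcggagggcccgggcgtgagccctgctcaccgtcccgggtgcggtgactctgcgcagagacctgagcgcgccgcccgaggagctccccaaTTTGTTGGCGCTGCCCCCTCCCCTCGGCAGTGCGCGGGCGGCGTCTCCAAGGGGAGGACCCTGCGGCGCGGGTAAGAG

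Both regions were rich in G and C, with 74.0% for *Col4a1* and 73.7% for *Col4a2*, against a median of 52.7% over 32851 RefSeq promoters of the same length. The GC box GGGCGG, searched on both strands, was found 1 time in the *Col4a1* region and 3 times in that of *Col4a2*, and 35.7% of all promoters hold it. CCAAT was found 1 time in each, and 37.4% of all promoters hold it. TATAAA was found in neither, and 13.6% of all promoters hold it. These matches describe letters and not bound sites. The ratio of *Col4a1* to *Col4a2* per kb was 1.73 ± 0.0370 in WT and 1.76 ± 0.0266 in WDR6-WKO hepatocytes, with overlapping ranges (exact two-sided permutation test, p = 0.343).

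Type V collagen, which joins type I collagen in mixed fibrils, changed in 1 of its 3 chains. *Col5a2* was counted at 48.1, 45.1, 49.6 and 51.0 CPM in WT and at 67.7, 66.8 and 59.4 CPM in WDR6-WKO libraries. The groups did not overlap, and replicate 3 was again the lowest of the WDR6-WKO libraries. Its mean rose from 48.5 ± 2.51 to 64.6 ± 4.56 CPM, a log2 fold change of 0.42 (SE 0.07, edgeR adjusted p = 0.000548). *Col5a1*, with which it is assembled, had a log2 fold change of 0.07 (SE 0.06, edgeR adjusted p = 0.481), and *Col5a3* one of -0.28 (SE 0.17, adjusted p = 0.310). *Col3a1*, which lies 24.6 kb from *Col5a2* on chromosome 1, was counted at 217, 202, 224 and 226 CPM in WT and at 235, 256 and 219.8 CPM in WDR6-WKO libraries, and its log2 fold change of 0.13 (SE 0.06) did not pass the edgeR test (adjusted p = 0.168). The same gene was called without WDR6-WKO replicate 3, with 0.17 and an adjusted p of 0.00492. *Col1a1* and *Col1a2* had log2 fold changes of -0.03 and 0.11 (edgeR adjusted p = 0.765 and 0.194), and *Col1a2* was called without WDR6-WKO replicate 3 (0.14, adjusted p = 0.0304).

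Type VI collagen held the only collagen that fell. *Col6a3*, the long chain of its filaments, was counted at 35.1, 36.8, 40.1 and 34.1 CPM in WT and at 28.3, 26.6 and 24.2 CPM in WDR6-WKO libraries. Every WDR6-WKO library lay below every WT library. The log2 fold change was -0.47 (SE 0.08, edgeR adjusted p = 0.000981), a fitted level of 72.3% of WT. The other 2 chains of the trimer did not pass the test, with log2 fold changes of -0.01 (SE 0.10, edgeR adjusted p = 0.975) for *Col6a1* and 0.26 (SE 0.12, adjusted p = 0.170) for *Col6a2*, which was called without WDR6-WKO replicate 3 (0.36, adjusted p = 0.0223).

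Of the remaining collagens none was called. The 18 collagens that were not called had log2 fold changes from -0.48 (*Col13a1*) to 0.62 and adjusted p from 0.118 to 0.986 in the edgeR test. The value of 0.62 belonged to *Col11a2*, a minor fibrillar chain with between 4 and 18 reads in a library. Its 95% interval ran from -0.32 to 1.56, so at this depth neither a fall nor a large rise could be told. Over the 23 collagens the median log2 fold change was 0.07, with 13 values above and 10 below 0. The groups did not overlap for 3 collagens, against 23.5% of all genes tested. WDR6-WKO replicate 3 was the lowest of the 3 WDR6-WKO libraries for 17 of 23 collagens, or 73.9%, and for 40.2% of all genes tested. Summed over the family, collagen transcripts made up 1340.4 to 1422 CPM in WT, 1594 and 1615 CPM in WDR6-WKO replicates 1 and 2, and 1354 CPM in replicate 3. Leaving out any other library left 3 collagens called, and leaving out replicate 3 gave 9, 8 higher and 1 lower, among them *Col16a1*, a fibril-associated chain (0.69, edgeR adjusted p = 0.0163).

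**Figure D3:**
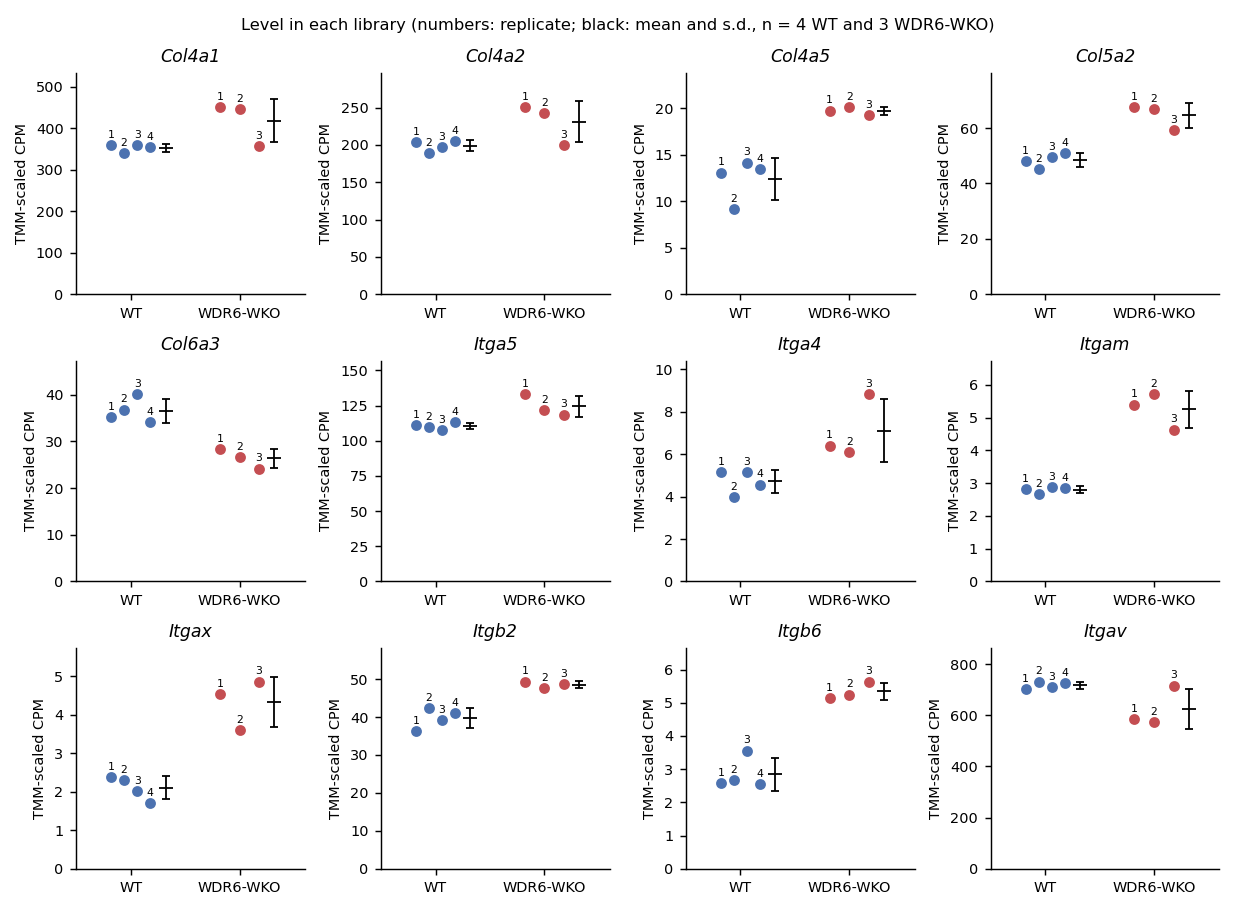
TMM-scaled CPM of the 11 called collagens and integrins and of *Itgav* in each library, with the replicate number beside each point and the mean and s.d. in black. For *Col4a1*, *Col4a2* and *Itgav*, WDR6-WKO replicate 3 lies with the WT libraries (358, 200.2 and 716 CPM), and for the other 9 genes the groups do not overlap.

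Laminin transcripts were close in the 2 genotypes. No laminin was called, by edgeR, by DESeq2 or by limma-voom, and 1 of 9 had an unadjusted p below 0.05. In edgeR 12.8% of all genes were called, and 9 genes are too few to set 0 calls apart from that share. The median log2 fold change was -0.05, the range -0.31 to 0.14, and the family summed to 352 to 364 CPM in WT and 343 to 359 CPM in WDR6-WKO libraries. *Lamc1*, which carries 59.0% of these reads after scaling, was counted at 202, 206, 209 and 213 CPM in WT and at 212, 204 and 212 CPM in WDR6-WKO libraries. The values overlapped throughout, and the log2 fold change of 0.01 had a 95% interval of -0.08 to 0.10. *Lamb3* had a log2 fold change of -0.17 (SE 0.09, edgeR adjusted p = 0.240).

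*Lamb2*, a beta chain of vascular and neuromuscular basement membranes, was the laminin with the unadjusted p below 0.05 and was picked out after its values were seen. It was counted at 13.3, 13.7, 13.7 and 13.8 CPM in WT and at 12.2, 11.6 and 11.8 CPM in WDR6-WKO libraries. The groups did not overlap, but the difference was small, with a log2 fold change of -0.19 (SE 0.09), and did not pass the edgeR test (adjusted p = 0.167). The laminin with the largest fold change was *Lama4*, an alpha chain of vessel walls, with -0.31 (SE 0.17, edgeR adjusted p = 0.255). Its 95% interval of -0.64 to 0.02 leaves room for a fall that these libraries could not resolve.

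The 6 called integrins were 26.1% of the 23 subunits, beside the 12.8% of all genes, and all of them were higher, beside the 6.65% of all genes called higher. The median log2 fold change over the 23 subunits was 0.05, and the groups did not overlap for 8 of them, beside 23.5% of all genes. Among the 10 alpha chains listed here as binding collagen, laminin, fibronectin or vitronectin, *Itga5* was called. *Itga4*, also called, was listed with the leukocyte chains below and is not among these 10, so the list does not hold every matrix-binding chain. *Itgb1*, the beta chain most of these pair with, was counted at 1305, 1369, 1361 and 1364 CPM in WT and at 1272, 1283 and 1379 CPM in WDR6-WKO libraries. These ranges overlapped, and the log2 fold change of -0.04 (SE 0.05, edgeR adjusted p = 0.600) had a 95% interval of -0.13 to 0.05. *Itga3* had a log2 fold change of -0.08 (SE 0.05, adjusted p = 0.302) in the same edgeR test. The collagen-binding chains *Itga1* and *Itga2* were called only with a library left out, *Itga1* without WDR6-WKO replicate 3 (-0.21, adjusted p = 0.0382) and *Itga2* without WDR6-WKO replicate 1 (0.26, adjusted p = 0.0363).

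The fibronectin receptor chain *Itga5* rose slightly. It was counted at 111, 109.7, 108 and 113 CPM in WT and at 133, 122 and 119 CPM in WDR6-WKO libraries, so the groups did not overlap. The log2 fold change was 0.17 (SE 0.05, edgeR adjusted p = 0.0442). This call was lost when any library other than WDR6-WKO replicate 3 was left out (adjusted p from 0.0730 to 0.233) and was kept without that replicate (0.20, adjusted p = 0.00173). *Itgav* was counted at 702, 732, 711 and 725 CPM in WT and at 586, 573 and 716 CPM in WDR6-WKO libraries. Replicates 1 and 2 lay below every WT library and replicate 3 lay among them. The log2 fold change of -0.20 (SE 0.07) did not pass the edgeR test (adjusted p = 0.0589). It passed DESeq2 and limma-voom (adjusted p = 0.0426 and 0.0450), and without WDR6-WKO replicate 3 it was -0.31 (edgeR adjusted p = 3.25e-07).

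The beta partners of *Itgav* differed from it and among themselves. *Itgb6*, an epithelial beta chain whose pair with *Itgav* activates latent TGF-β, had 51, 51, 67 and 51 reads in WT and 124, 111 and 101 reads in WDR6-WKO libraries. In CPM these were 2.57, 2.67, 3.56 and 2.56 in WT and 5.15, 5.25 and 5.64 in WDR6-WKO libraries, with no overlap. The log2 fold change was 0.91 (SE 0.16, edgeR adjusted p = 0.00143). *Itgb5*, the partner with the highest level after *Itgb1*, had a log2 fold change of 0.04 (SE 0.05, edgeR adjusted p = 0.669) and *Itgb3* one of 0.04 (SE 0.09, adjusted p = 0.851). *Itgb8*, another activator of latent TGF-β, was counted at 1.36, 1.26, 1.33 and 1.51 CPM in WT and at 0.914, 0.992 and 0.503 CPM in WDR6-WKO libraries. Its groups did not overlap, but the log2 fold change of -0.74 (SE 0.28) did not pass the edgeR test (adjusted p = 0.103).

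Leukocyte integrins made up 4 of the 6 calls. Of the 5 alpha chains listed as leukocyte or other, 3 were called higher, 60.0% beside 12.8% of all genes called and 6.65% called higher. The most abundant of these 5, *Itga9*, had a log2 fold change of 0.04 (SE 0.07, edgeR adjusted p = 0.738). *Itgam*, the alpha chain of a complement receptor of macrophages and granulocytes, had 56, 51, 54 and 57 reads in WT and 130, 121 and 83 reads in WDR6-WKO libraries. Scaled, it stood at 2.82, 2.67, 2.87 and 2.86 CPM in WT and at 5.40, 5.72 and 4.64 CPM in WDR6-WKO libraries, which did not overlap. The log2 fold change was 0.91 (SE 0.15, edgeR adjusted p = 0.000848). *Itgax*, the alpha chain of dendritic cells and some macrophages, stood at 2.37, 2.30, 2.02 and 1.71 CPM in WT and at 4.53, 3.59 and 4.86 CPM in WDR6-WKO libraries. These groups did not overlap either, and the log2 fold change was 1.04 (SE 0.18, edgeR adjusted p = 0.00136).

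*Itgb2*, the beta chain that pairs with both, stood at 36.3, 42.3, 39.1 and 41.0 CPM in WT and at 49.4, 47.5 and 48.6 CPM in WDR6-WKO libraries. All WDR6-WKO libraries were above all WT libraries, but the rise was smaller, with a log2 fold change of 0.29 (SE 0.06, edgeR adjusted p = 0.00792). *Itgal*, the alpha chain that pairs with *Itgb2* on lymphocytes, had a log2 fold change of 0.05 (SE 0.11, edgeR adjusted p = 0.830). *Itga4*, which pairs with *Itgb1* or *Itgb7* on leukocytes, stood at 5.14, 3.98, 5.16 and 4.57 CPM in WT and at 6.40, 6.10 and 8.82 CPM in WDR6-WKO libraries. The groups did not overlap, replicate 3 was the highest, and the log2 fold change was 0.58 (SE 0.16, edgeR adjusted p = 0.0229). The *Itga4* call was lost without WDR6-WKO replicate 3 (0.41, adjusted p = 0.0513), without WT replicate 2 (0.51, adjusted p = 0.0738) and without WT replicate 4 (0.57, adjusted p = 0.0652). *Itgb7* had the largest fold change of the integrins, 1.34 (SE 0.53), on 13, 0, 10 and 13 reads in WT and 37, 14 and 24 reads in WDR6-WKO libraries, and did not pass the edgeR test (adjusted p = 0.117).

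Counting was not free of doubt for some of these genes. An annotated transcript, *Gm49368*, shares 3450 exon bases with *Itgam* on the same strand, and 66.3% of the 50-base sequences of *Itgam* are also found in it, so reads could have been split between the 2 symbols. For *Itgax* 8.02% are found in *Itgad*, and for *Itgb2* 1.05% in *Gm14699*. Exons of *Itga4* and *Itgav* overlap with a gene on the opposite strand over 1124 and 634 bases, and whether the counting used strand is not given in the sources used here.

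*Itgam* and *Itgax* are neighbours on chromosome 7 of GRCm38, *Itgam* from 128062640 to 128118491 and *Itgax* from 128129547 to 128150657, both on the plus strand and 11.1 kb apart. Their start regions in RefSeq are shown because the 2 neighbours rose together. Capitals mark GAGGAA on either strand, letters of the purine-rich kind bound by PU.1, a transcription factor of myeloid cells.
Itgam (chr7:128062390-128062689, plus strand): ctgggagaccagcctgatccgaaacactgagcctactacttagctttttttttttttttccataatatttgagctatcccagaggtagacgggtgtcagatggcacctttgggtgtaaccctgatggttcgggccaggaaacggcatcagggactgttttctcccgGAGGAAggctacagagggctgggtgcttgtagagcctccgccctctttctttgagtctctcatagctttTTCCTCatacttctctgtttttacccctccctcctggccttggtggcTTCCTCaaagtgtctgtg
Itgax (chr7:128129300-128129599, plus strand): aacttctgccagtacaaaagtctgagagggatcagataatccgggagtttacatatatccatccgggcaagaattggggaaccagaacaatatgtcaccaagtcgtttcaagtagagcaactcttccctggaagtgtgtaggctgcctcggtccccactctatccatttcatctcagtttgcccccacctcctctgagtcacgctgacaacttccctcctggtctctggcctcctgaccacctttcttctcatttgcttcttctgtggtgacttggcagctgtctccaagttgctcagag

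GAGGAA was found 3 times in the *Itgam* region and not in that of *Itgax*, which says only that these letters are not in that window. It was found in 28.3% of all promoters and in 42.6% of the 47 promoters of the 42 members for which RefSeq gave one. The GC box was found in 53.2% of these 47 promoters, CCAAT in 25.5% and TATAAA in 6.38%. The G and C content of the *Itgam* region was 50.3%, below that of the start regions of *Col4a1* and *Col4a2* above.

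Because collagens, laminins and integrins work as trimers or pairs, the ratio of partner chains was taken in each library for 24 pairs, which were chosen after the values of single genes had been seen and are given as a description. The groups did not overlap for 13 of the 24. Among single genes 23.5% of those tested did not overlap, and no such share was taken for ratios of other genes. Several pairs share a chain, and most of the 13 hold one that did not overlap by itself. The count is therefore not a result apart from the single genes. An exact two-sided permutation test can give no p below 0.0286 with 4 against 3 libraries, and no pair stayed below 0.05 after adjustment over the 24 (smallest adjusted p = 0.0623). *Itgb6* to *Itgav* moved most. Its ratio per kb was 0.00537, 0.00536, 0.00735 and 0.00518 in WT and 0.0129, 0.0134 and 0.0116 in WDR6-WKO libraries, a difference of 1.13 on the log2 scale. *Itgax* to *Itgb2* and *Itgam* to *Itgb2* were higher by 0.75 and 0.61 on the log2 scale, and *Itga4* to *Itgb1* was higher by 0.62. *Itgb6*, *Itgax*, *Itgam* and *Itga4* did not overlap by themselves, so the separation of these ratios adds no support of its own. Other integrin ratios went down: *Itgal* to *Itgb2* changed by -0.24 and *Itgav* to *Itgb1* by -0.16, both without overlap. *Itgb8* to *Itgav* changed by -0.62, with overlap.

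Among collagens, *Col4a5* to *Col4a1* was 0.0355 ± 0.00570 in WT and 0.0481 ± 0.00549 in WDR6-WKO hepatocytes. *Col5a2* to *Col5a1* was 1.02 ± 0.0560 in WT and 1.30 ± 0.0442 in WDR6-WKO hepatocytes. *Col6a3* to *Col6a1* was 0.974 ± 0.105 in WT and 0.709 ± 0.0590 in WDR6-WKO hepatocytes. In each of these 3 pairs the genotypes were apart in every library (exact two-sided permutation test, p = 0.0286, and 0.0623 after adjustment over the 24 pairs). Each pair was chosen knowing that *Col4a5*, *Col5a2* or *Col6a3* did not overlap by itself, so this separation adds no support of its own. The ratio of *Lamb2* to *Lamc1* was 0.0886 ± 0.00102 in WT and 0.0769 ± 0.00132 in WDR6-WKO hepatocytes, again without overlap, while *Lamb1* and *Lama5* to *Lamc1* overlapped. *Lamb2* did not overlap by itself either, so its ratio adds no support of its own.

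**Figure D4:**
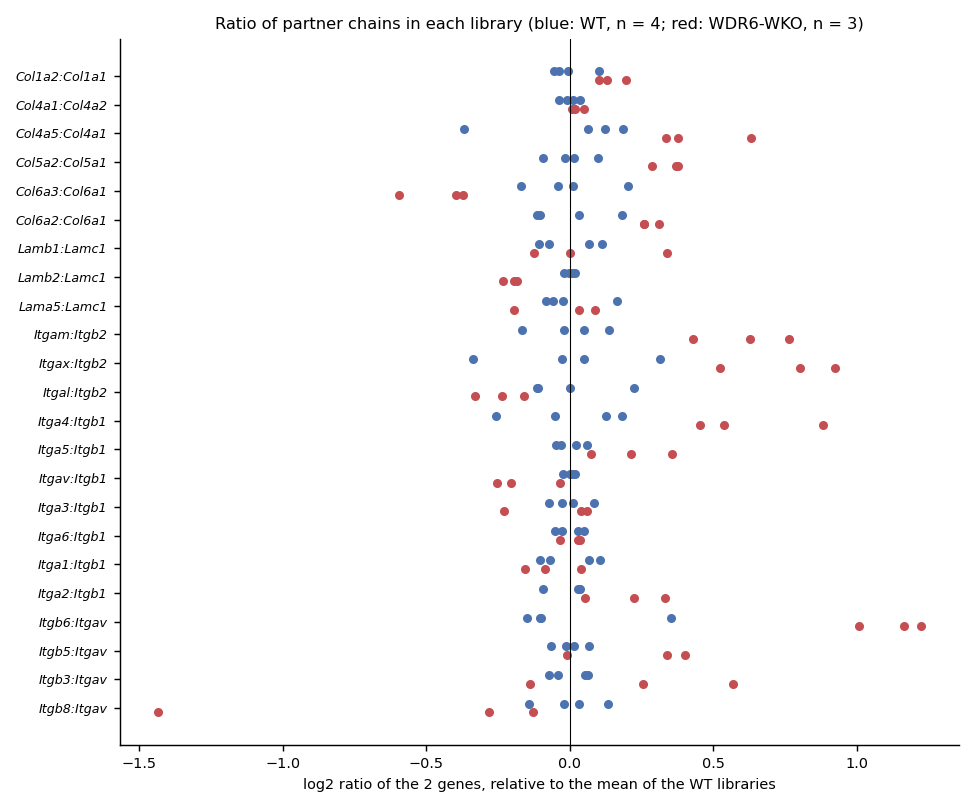
Log2 ratio of partner chains in each library relative to the mean of the WT libraries (x axis) for 23 of the 24 pairs, with WT libraries in blue and WDR6-WKO libraries in red. The pairs *Itgb6*:*Itgav*, *Itgax*:*Itgb2*, *Itgam*:*Itgb2* and *Itga4*:*Itgb1* have red points far to the right of blue, *Col6a3*:*Col6a1*, *Lamb2*:*Lamc1*, *Itgal*:*Itgb2* and *Itgav*:*Itgb1* lie to the left, and *Col4a1*:*Col4a2* stays near 0.

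Other genes of matrix and adhesion were taken from 6 lists of 105 tested genes. Of these, 26 were called, 9 higher and 17 lower, a share of 24.8% beside 12.8% of all genes, and their median log2 fold change was -0.01. Scaling by library size alone gave 13 higher and 13 lower. Without WDR6-WKO replicate 3 the lists held 40 calls, and without any other library 10 to 16. Of 17 genes for collagen modification and folding, 5 were called lower and 1 higher, 35.3% of the list beside 12.8% of all genes. The lower genes included *P4ha1*, an alpha subunit of the prolyl hydroxylase that stabilizes the triple helix, with 49.2, 50.7, 49.8 and 50.2 CPM in WT and 37.6, 40.7 and 37.9 CPM in WDR6-WKO libraries. The groups were far apart, and the log2 fold change of *P4ha1* was -0.37 (SE 0.06, edgeR adjusted p = 0.000718). *P4hb*, its partner subunit, changed by -0.18 (SE 0.04, adjusted p = 0.0120), and *Mia3*, which loads procollagen into transport carriers, by -0.26 (SE 0.06, adjusted p = 0.0113). The higher gene was *Serpinh1*, the collagen chaperone, named after its values were seen. It was counted at 87.4, 84.3, 92.4 and 94.5 CPM in WT and at 123, 132 and 94.2 CPM in WDR6-WKO libraries, with replicate 3 within the WT range as for *Col4a1*, and its log2 fold change was 0.38 (SE 0.10, edgeR adjusted p = 0.0238), or 0.50 without that replicate (adjusted p = 9.23e-09).

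Of 14 genes for collagen processing and crosslinking, the lysyl oxidase-like enzyme *Loxl2* was called (-0.28, SE 0.07, edgeR adjusted p = 0.0249), 7.14% of the list beside 12.8% of all genes. Among 20 basement membrane partners and other matrix glycoproteins, 4 rose and 4 fell, 40.0% of the list. *Fn1*, the fibronectin gene and thus the ligand of the *Itga5* integrin, was counted at 4556, 4631, 4645 and 4998 CPM in WT and at 3636, 3169.8 and 3565 CPM in WDR6-WKO libraries. It fell in every WDR6-WKO library, with a log2 fold change of -0.45 (SE 0.05, edgeR adjusted p = 5.59e-05). *Fbln2*, a fibulin of vessel walls and basement membranes, fell further, by 0.64 on the log2 scale (SE 0.06, adjusted p = 2.81e-06), and *Ecm1* by 0.27 (SE 0.06, adjusted p = 0.00470). Among the 4 higher genes, *Vtn*, the vitronectin gene, rose by 0.26 (SE 0.06, edgeR adjusted p = 0.00686) and *Sparc* by 0.24 (SE 0.05, adjusted p = 0.00976). Of 11 other matrix receptors, *Dag1*, the dystroglycan gene whose product binds laminin, fell by 0.23 (SE 0.05, edgeR adjusted p = 0.00394), and *Ddr2*, a collagen receptor kinase, rose by 0.35 (SE 0.11, adjusted p = 0.0455). These 2 calls were 18.2% of that list.

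Of 29 integrin adaptors and focal adhesion genes, 2 rose and 2 fell, 13.8% of the list, which is near the 12.8% of all genes. *Src*, the kinase, rose by 0.25 (SE 0.06, edgeR adjusted p = 0.0110), *Fermt3*, the kindlin of blood cells that activates integrins, rose by 0.34 (SE 0.10, adjusted p = 0.0287), and *Parva*, an actin-binding adaptor, fell by 0.19 (SE 0.06, adjusted p = 0.0361). Of 14 TGF-β ligands, receptors and targets, the ligand *Tgfb3* rose by 0.54 (SE 0.12, edgeR adjusted p = 0.00956), and 4 genes fell, among them the receptor *Tgfbr2* by 0.20 (SE 0.05, adjusted p = 0.0104) and the mediator *Smad3* by 0.19 (SE 0.05, adjusted p = 0.0138). The share called in the TGF-β list was 35.7%. The calls of *P4ha1*, *Fn1*, *Fbln2*, *Ecm1*, *Dag1* and *Tgfbr2* were kept whichever library was left out.

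Each of the other 20 calls on these lists was lost without at least 1 library in the same edgeR test, which gave the adjusted p below for the genes named above. *Mia3* and *Src* lost theirs without WDR6-WKO replicate 1 (0.0548 and 0.0657) or 2 (0.0600 and 0.0658), *Tgfb3* without WDR6-WKO replicate 1 (0.0591), and *P4hb* without WT replicate 2 (0.0514). *Vtn* lost its call without WDR6-WKO replicate 1 (0.0534) and *Sparc* without WDR6-WKO replicate 1 or 2 (up to 0.0574). *Serpinh1* lost its call without WDR6-WKO replicate 1 or 2 (0.0975 and 0.0798) or WT replicate 1 or 2 (0.0615 and 0.0622), *Smad3* without WDR6-WKO replicate 2 (0.0635) or WT replicate 3 or 4 (0.0525 and 0.0543), and *Loxl2* without any of the WDR6-WKO replicates (0.0927, 0.101 and 0.108) or WT replicate 4 (0.0584). *Fermt3* and *Parva* lost theirs without any library but WDR6-WKO replicate 3 (0.0553 to 0.177 and 0.0724 to 0.175), and *Ddr2* without WDR6-WKO replicate 2 (0.236) or any of the WT replicates (0.0692 to 0.119).

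Many of these genes are typical of cells other than hepatocytes, so marker lists were set beside them. Hepatocyte markers were abundant, *Alb* with 6359.9 to 7934 CPM in WT and 6087 to 6803 CPM in WDR6-WKO libraries, but markers of stellate, endothelial, Kupffer and bile duct cells were counted in every library too. In such bulk RNA, fewer cells of a type and less RNA per cell cannot be told apart. Of 15 Kupffer cell and macrophage markers, 4 were called, all higher (*Lyz2* 0.64, *C1qc* 0.48, *C1qb* 0.30 and *Cd14* 0.18 as log2 fold changes, edgeR adjusted p from 2.13e-06 to 0.0441), with a median of 0.22. The share called was 26.7%, beside 12.8% of all genes. Fold changes were above 0 for 14 of the 15 and below 0 for *Timd4* (-0.48, SE 0.18, edgeR adjusted p = 0.0880). For *Timd4* every WDR6-WKO library lay below every WT library. *Clec4f* had 0.10 (SE 0.06, adjusted p = 0.311). The most abundant gene of the list, *Cd5l*, had 0.18 (adjusted p = 0.0687) and was called without WDR6-WKO replicate 3 (0.25, adjusted p = 9.89e-05). Without WDR6-WKO replicate 2 it had 0.09 (adjusted p = 0.370). Summed, they stood at 1199 to 1283 CPM in WT and at 1483, 1575 and 1370.3 CPM in WDR6-WKO replicates 1 to 3. *C1qb* lost its call without WDR6-WKO replicate 1 or 2 or WT replicate 1 or 2 (adjusted p 0.0689 to 0.118) and *Cd14* without WDR6-WKO replicate 1 or 2 or WT replicate 2, 3 or 4 (0.0768 to 0.163). These sums moved in the same direction as *Itgam*, *Itgax*, *Itgb2* and *Itga4*, and their part in those results was not tested.

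Of 14 lymphocyte and neutrophil markers, 2 were in the table, *Ptprc* among them at a log2 fold change of -0.03 (edgeR adjusted p = 0.873). The list summed to 14.1 to 18.02 CPM in WT and 15.8 to 16.6 CPM in WDR6-WKO libraries. Of 6 platelet and megakaryocyte markers, the 2 in the table were *Itga2b*, itself an integrin (0.18, adjusted p = 0.677), and *Pf4*, which rose by 0.74 (SE 0.17, adjusted p = 0.00872) and lost its call without WDR6-WKO replicate 2 (0.0687). Their sum was 4.37 to 5.95 CPM for WT and 6.82 to 8.60 CPM for WDR6-WKO libraries. Among 11 stellate cell and fibroblast markers, *Acta2* rose (0.33, edgeR adjusted p = 0.00254) and *Rgs5* fell (-0.48, adjusted p = 0.00201), 18.2% of the list beside 12.8% of all genes. The sum of this list was 176 to 206 CPM in WT and 197 to 214 CPM in WDR6-WKO libraries, so the ranges overlapped, and its part in the collagen results was not tested.

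Endothelial markers summed to 399.6 to 459 CPM in WT and 372 to 437 CPM in WDR6-WKO libraries, and *Tek* was called lower among the 14 (-0.45, edgeR adjusted p = 0.0185), a call lost without WDR6-WKO replicate 2 (0.0779), WT replicate 3 (0.0614) or WT replicate 4 (0.0669). The share called among these 14 was 7.14%, beside 12.8% of all genes. *Eng*, the most abundant endothelial marker, had -0.04 (adjusted p = 0.756). Of 8 cholangiocyte markers, *Spp1* and *Sox9* rose (0.31 and 0.20, adjusted p = 0.00372 and 0.0279) and *Tspan8* fell (-0.45, adjusted p = 0.0119), 37.5% of the list. *Spp1*, which holds 91.9% of that list's sum, is also made by other cells, and the list summed to 3123 to 3416 CPM in WT and 3760 to 4353 CPM in WDR6-WKO libraries. Without *Spp1* the sum was 277 to 305 CPM in WT and 271 to 300.7 CPM in WDR6-WKO libraries, which overlapped, and 4 of the 8 genes had fold changes below 0. The part of this list in the *Itgb6* result was not tested. *Sox9* lost its call without WDR6-WKO replicate 1 or 2 or WT replicate 1, 2 or 3 (0.0503 to 0.0937), and *Tspan8* without WDR6-WKO replicate 1 (0.0565).

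Of the 10 hepatocyte markers, 5 were called, all lower, beside 12.8% of all genes called and 6.18% called lower. They were *Cps1*, *Tdo2*, *Hnf4a*, *Apoa1* and *Asgr1*, with log2 fold changes of -0.69, -0.69, -0.27, -0.69 and -0.43 (edgeR adjusted p from 0.000114 to 0.0487). All 10 fold changes of the list were below 0, with a median of -0.35. The WT and WDR6-WKO libraries did not overlap for 5 of the 10, beside 23.5% of all genes. *Alb* had -0.18 and did not pass the edgeR test (adjusted p = 0.101), but was called without WT replicate 1 (-0.25, adjusted p = 0.0142). The call of *Asgr1* was lost without any library but WT replicate 1 (0.0519 to 0.133). The sum of the hepatocyte list was 13520 to 16107 CPM for WT and 12480.5 to 14408 CPM in WDR6-WKO libraries, and its part in the fall of *Col6a3*, *Fn1* and *Fbln2* was not tested.

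**Figure D5:**
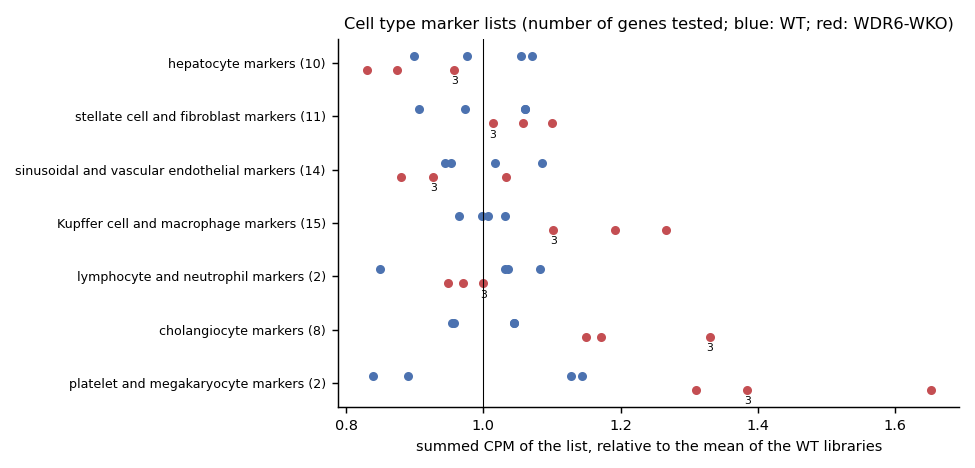
Summed CPM of each marker list in each library relative to the mean of the WT libraries (x axis), with the number of genes tested in brackets, WT in blue, WDR6-WKO in red and WDR6-WKO replicate 3 marked. The Kupffer cell and macrophage, cholangiocyte, and platelet and megakaryocyte lists have all red points to the right of the blue points, and the other 4 lists overlap. Without their most abundant genes, *Spp1* and *Pf4*, the cholangiocyte and platelet lists overlapped too, and the Kupffer cell list without *Cd5l* did not.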

How the data were processed

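RNA of primary hepatocytes was sequenced in 4 WT and 3 WDR6-WKO libraries and mapped to mm10 with Bowtie2 2.2.3, per the labels and methods. The authors deposited raw read counts per gene symbol. The counting tool, annotation and strand setting are not given in the sources used here. The table holds 14819 rows, 21 with spreadsheet dates for symbols, and no row total is below 50. Neither labels nor methods say how many mice gave these libraries, which are taken as separate samples, and p-values measure only the spread between them.

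From these counts, edgeR 4.0.16 (R 4.3.3) was run on the whole table: its expression filter, TMM scaling and the quasi-likelihood test with robust dispersion, knockout over WT, with Benjamini-Hochberg adjustment over 14779 genes. The biological coefficient of variation was 7.40%. SE was derived from the fold change and its test statistic. Exact two-sided permutation tests ran over the 35 ways to assign 3 of 7 libraries. Levels per kb used the longest principal transcript in GENCODE. Steps were tested on simulated data. Alternatives were DESeq2 1.42.0, limma-voom (limma 3.58.1), median-of-ratios factors, library size alone, other filters, the replicate number as a block, each library left out, and other thresholds.

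The members, gene lists and tests were chosen with earlier results of these data known. Named were *Wdr6*, the called members, in each family the 3 highest per kb and the largest change not called, for each matrix list up to 3 called genes with the smallest p, and the called and most abundant markers. One gene is not reported here by name. Marker sums without their most abundant gene were added after seeing the data. Genes outside this rule were named after their values were seen.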

Additional observations from a re-analysis of the deposited data

Results flagged for a closer look

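In a group of 4 libraries, a value was picked out when its gap to the nearest other WT library took up more of the whole range than Dixon's 95% limit allows. Of 95 genes looked at, 5 had such a library, and chance alone gives about 1 in 20. *Col1a2* stood at 105 CPM in WT replicate 3, against 101 CPM in each of the other WT libraries. *Col8a1* stood at 1.004 CPM in WT replicate 4, against 0.504 to 0.585 CPM. *Itgb1* was lowest in WT replicate 1 with 1305 CPM, against 1361 to 1369 CPM. *Itgb6* stood at 3.56 CPM in WT replicate 3, against 2.56 to 2.67 CPM, and all WDR6-WKO libraries were above it. *Lyz2* stood at 52.4 CPM in WT replicate 3, against 48.0 to 48.6 CPM.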

How the results depend on the processing

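The calls of *Col4a5*, *Col5a2*, *Col6a3*, *Itgam*, *Itgax*, *Itgb2* and *Itgb6* were kept under all 14 alternatives run for each, and no called gene changed direction. Leaving out 1 library moved the number of calls from 1032 to 4233 over all genes (1897 with all libraries, 4233 without WDR6-WKO replicate 3, 1032 without replicate 2, 1180 without replicate 1, 1210 and 1182 without WT replicates 3 and 4), from 3 to 9 for collagens, from 4 to 7 for integrins and from 10 to 40 for the matrix and adhesion lists, while it stayed 0 for laminins. *Wdr6* ranged from -4.27 to -4.15 in these fits. An adjusted p below 0.01 left 862 genes, 3 collagens and 8 genes of the matrix lists, and the rule of 0.35 in log2 with an unadjusted P below 0.05 gave 10 genes of the matrix lists. With library totals as the scaling there were 1212 higher and 696 lower genes against 983 and 914, which shifted the median log2 fold change by 0.03. This scaling also called *Cd5l* (0.21, edgeR adjusted p = 0.0398). *Col4a2* also lost its call with limma-voom (adjusted p = 0.0506) and *Itga5* with median-of-ratios factors (edgeR adjusted p = 0.0504).

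The groups share replicate numbers, but libraries with the same number did not deviate together (correlations of 0.04, 0.02 and 0.04). Those with different numbers ran from -0.13 to 0.12. These values showed no sign of pairing by number, and so few of them cannot exclude it. With the replicate block, 1762 genes were called in all, 5 collagens, 0 laminins, 7 integrins with *Itgb7* added (1.64, edgeR adjusted p = 0.0336) and 20 genes of the matrix lists, and *Wdr6* had -4.19. Low counts limit *Itgb7*, *Itgb8*, *Itga8*, *Itgb4*, *Col11a2*, *Col22a1* and *Lama3*, whose standard errors lay between 0.28 and 0.53.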
